A study of Saccharomyces cerevisiae with 57 samples.

Results

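Strains in which micrococcal nuclease (MNase) is fused to the C terminus of Abf1 through linkers of different length were compared by ChEC-seq, at 30 s and at 5 min of digestion. Of the 57 libraries of the series, 6 enter this comparison. They are the short-linker libraries at 30 s and 5 min (8 amino acids between Abf1 and MNase), against 3 replicates at 30 s and 1 library at 5 min of the strain with the linker of 33 amino acids. Both fusions were made at the chromosomal ABF1 gene with a kanMX6 marker in W1588-4C, a RAD5+ relative of W303-1A. The methods describe the long linker as carrying 3xFLAG and the short one as lacking it, although the genotype label of the short-linker libraries still names ABF1-3FLAG-MNase-kanMX6. Fragments were mapped to the reference genome, which does not hold the linker, so its length could not be checked in the data. Cells were grown in YPD, permeabilised with digitonin and digested with 2 mM CaCl2 at 30 °C. Free MNase, a FLAG-tagged enzyme with a nuclear localisation signal expressed from the REB1 promoter at URA3, was digested for the same times and serves as background.

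Abf1 is a general regulatory factor of budding yeast. It binds a bipartite sequence through a split DNA-binding domain, keeps nucleosomes away from promoters, and also acts at replication origins and in repair. In ChEC-seq the tethered nuclease cuts DNA beside the bound factor when calcium is added, so that the ends of small fragments mark where the fusion protein sat or where it reached accessible DNA.

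The short-linker strain is represented by 1 library at each time. The labels give it the same run code at 30 s as 33-aa replicates 2 and 3, while replicate 1 carries another code, so the 30 s test was made against replicates 2 and 3 and replicate 1 was kept as a check. At 5 min the short-linker and 33-aa libraries carry different run codes, and linker and run cannot be told apart. Nuclear ends outside ribosomal DNA (rDNA) numbered 4966901 in the short-linker library at 30 s, against 5014887 to 8654057 in the 33-aa replicates. The 5 min libraries held 6980284 such ends for the short linker and 6525676 for the 33-aa linker. Of all ends, 14.8% fell in rDNA in the short-linker library at 30 s, against 8.80% ± 2.07 in the 33-aa replicates (SD, n = 3, exact permutation test, two-sided p = 0.25, the smallest that 1 library against 3 allows). At 5 min the rDNA share was 20.3% with the short linker and 13.9% with the 33-aa linker. Fragments shorter than 150 bp made up 18.5% of the short-linker library at 30 s, against 11.2%, 12.9% and 20.4% in 33-aa replicates 1, 2 and 3.

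The short-linker libraries also stood apart at 1 place in the genome. On chromosome III, from 83603 to 84064 in the sacCer3 build, neither short-linker library had an end, which allows up to 0.604 at 30 s and 0.430 at 5 min in ends per 1000000 nuclear ends outside rDNA, the unit used from here on and written ppm. The 12 Abf1 33-aa libraries with calcium that were examined held 206 to 694 ends there, and all 17 other libraries examined, with free MNase, Rap1 and Abf1 without calcium among them, held at least 64. The stretch covers the coding sequence of YCL021W-A and lies among long terminal repeats of Ty elements, before the Ty2 element that holds YCL019W and YCL020W. When the nuclear genome was divided into 24150 bins of 500 bp, both short-linker libraries lay at least 5-fold below all of the 33-aa replicates and the 33-aa 5 min library in 3 bins, which all belong to this place. They lay 5-fold above them in 0 bins. Whether the DNA itself is missing from the short-linker strain was not tested, and the regions beside it did not meet the rule for named regions and are described on their own.

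Of the 10 regions with the highest levels, 8 hold a match to the Abf1 consensus. The sequences that follow show the best-cut match at 4 of these regions, to mark where the strains cut, and are read 5′ to 3′ along the strand of the match from the RefSeq assembly of the sacCer3 build, with the 13 bases of the consensus in capitals. TFA1 encodes a subunit of the general transcription factor TFIIE, HUA1 a protein linked to cortical actin patches, NCB2 a subunit of the NC2 repressor of TBP, and VIR1 a protein of the mRNA methylation complex. The windows are chrXI:385372-385452 for TFA1, chrVII:1026739-1026819 for HUA1, chrIV:1267219-1267299 for NCB2 and chrVII:428297-428377 for VIR1, and only the NCB2 match is read on the plus strand.
TFA1: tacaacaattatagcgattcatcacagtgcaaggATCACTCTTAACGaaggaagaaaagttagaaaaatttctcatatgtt
HUA1: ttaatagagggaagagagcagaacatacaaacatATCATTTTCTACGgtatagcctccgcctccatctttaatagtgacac
NCB2: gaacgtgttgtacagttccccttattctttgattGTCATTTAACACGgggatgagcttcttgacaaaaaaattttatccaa
VIR1: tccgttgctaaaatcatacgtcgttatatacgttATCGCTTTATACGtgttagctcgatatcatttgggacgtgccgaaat

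The best-cut match was examined in each of the 8 regions, and the base with the most ends was the same in all 4 libraries at 30 s in 4 of them (HUA1, NCB2, RAD27 and VIR1). Positions are counted from the centre of the consensus. At HUA1 the base with the most ends at 30 s was position -16 with the short linker and in all 3 33-aa replicates. At NCB2 it was position -18 in these 4 libraries, and at VIR1 position 11. At TFA1 it was position -15 with the short linker and in replicate 1, and position -34 in replicates 2 and 3, so here the replicates differed among themselves. They also did at SMX2 (position -21 with the short linker and in replicate 1, -22 in replicates 2 and 3), RSF2 (-21 with the short linker and in replicate 2, 11 in replicates 1 and 3) and ALG1 (11 with the short linker and in replicates 1 and 3, -14 in replicate 2). At VIR1 the bases from 7 to 16 on either side of the centre held 73.8% of the ends within 40 bp with the short linker, and 72.1%, 69.1% and 77.2% in 33-aa replicates 1, 2 and 3. Inside the 13 bases of the 4 matches printed above (TFA1, HUA1, NCB2 and VIR1) at most 0.211% of the ends fell in any of the 4 libraries at 30 s. Over all 8 matches the largest share was 0.357%, at RSF2 in replicate 3.

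Over all 1017 intergenic matches the level, the share in the flanks and the left over right ratio with the short linker lay within the range of the replicates, and the share inside the consensus lay above it. Within 100 bp of the centre, the short-linker library at 30 s had 199.6 ppm per site, between the 184.1 of replicate 2 and the 217.0 of replicate 1, with 213.4 in replicate 3. Free MNase had 17.5 at 30 s. The mean profile was highest at position -15 on the left and 11 on the right in the short-linker library and in each replicate, as the plot of ends around the consensus shows. The flanks from 7 to 16 bases held 27.3% of ends with the short linker, and 26.6% ± 1.90 with the 33-aa linker (SD, n = 3, exact permutation p = 1). Left over right flank was 1.21 with the short linker and 1.28 ± 0.128 with the 33-aa linker (SD, n = 3, exact permutation p = 0.75). Inside the consensus the share was 0.600% with the short linker, above all 3 replicates (0.494% ± 0.0386, SD, n = 3, exact permutation p = 0.25, the smallest this design allows). Across the 201 positions of the profile, Pearson's r between the short linker and the replicates ran between 0.976 and 0.998, and between replicates from 0.974 to 0.996. The positions share their sites and the base preference of MNase.

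**Figure D1:**
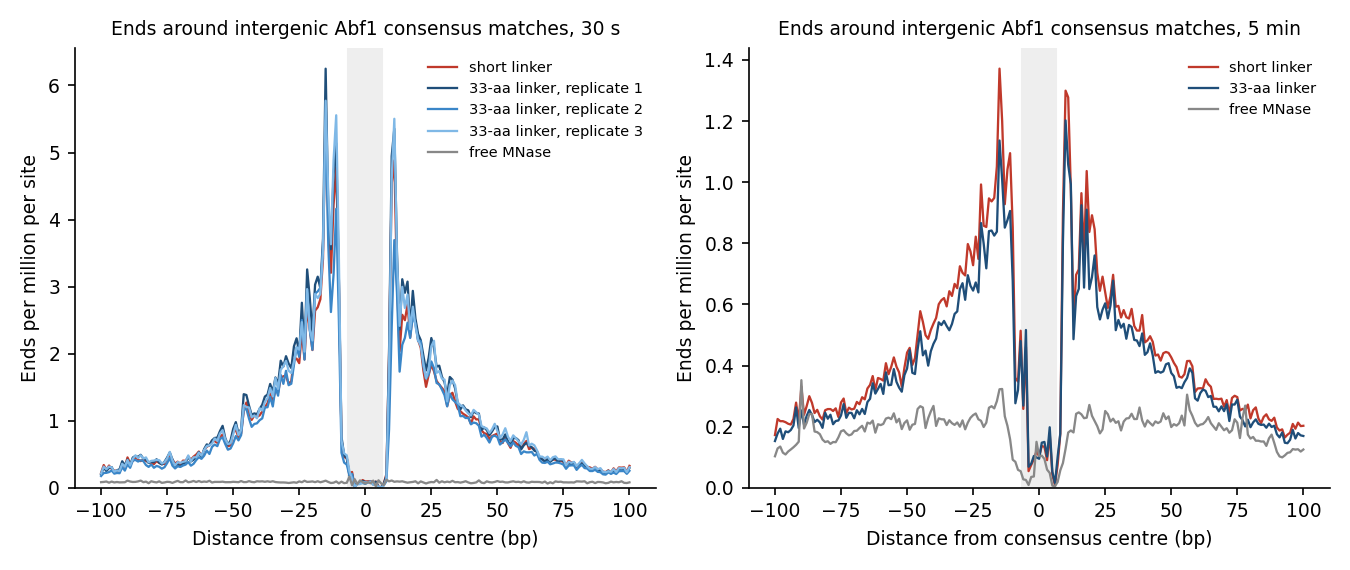
Ends per site in ppm (y axis) by distance in bp from the centre of 1017 intergenic Abf1 consensus matches (x axis), at 30 s on the left and 5 min on the right, with 1 line per library and the 13 bp of the consensus shaded. The short-linker line follows the 33-aa lines, with maxima at -15 and 11 in all Abf1 libraries at 30 s, and free MNase stays low and flat at 30 s.

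Taken site by site, 965 intergenic matches had a mean of at least 20 ppm over the 3 libraries of the test. The log2 difference, short linker minus 33-aa replicates 2 and 3, had a median of -0.01 and an SD of 0.30 over these sites. Replicate 1 minus replicates 2 and 3 gave an SD of 0.31. Of the sites, 2 were at least 2-fold higher and 4 at least 2-fold lower with the short linker, while replicate 1 had 0 and 5. The short-linker value lay within the range of the 3 replicates at 476 sites, above it at 231 and below it at 258.

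Levels were then read in the 500 bp upstream of each protein-coding gene, in the same unit. Of 5983 such regions, 5922 had a mean of at least 5 ppm at 30 s and were tested. At this depth 1 ppm is 4.97 ends in the short-linker library, and the median tested region held 228 ends there, against 235 to 339 in the 33-aa replicates.

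The 10 regions with the highest levels were high in all libraries. Upstream of TFA1 the short-linker library had 1570 ppm at 30 s, and 33-aa replicates 1, 2 and 3 had 2301, 1303 and 1694. Free MNase had 41.2 there. The HUA1 region had 1335 with the short linker, and 1699, 1568 and 1440 with the 33-aa linker. The VIR1 region had 1093 with the short linker, and 847, 579 and 1449 with the 33-aa linker. The short-linker value lay inside the range of the replicates upstream of TFA1 and VIR1, and below it upstream of HUA1. The other regions of this group lie upstream of NCB2 and UTP5, which share a promoter, SMX2 and LPD1, RSF2, MDL2, ALG1 and CMD1, RAD27, and FAB1. Among them are genes for an Sm protein of spliceosomal particles (SMX2), lipoamide dehydrogenase (LPD1), calmodulin (CMD1) and the flap endonuclease of replication (RAD27). Over the 13 genes the log2 difference at 30 s ran from -0.37 for MDL2 to 0.25 for VIR1, with standard errors of 0.38 to 0.48, and none passed the test.

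Promoters long known to bind Abf1 were read as a list of 18 regions. Standard errors in the list ran from 0.19 at HIS7 to 0.39 at LPD1, so small differences could not be told. Their median log2 difference was 0.07, beside -0.03 for all tested regions. At ABF1 itself, whose product binds its own promoter, the short linker gave 827 ppm, against 1071, 660 and 941 in 33-aa replicates 1, 2 and 3. COX6, for a subunit of cytochrome c oxidase, had 391.6 with the short linker, and 367, 298 and 378 with the 33-aa linker. RPC40, for a subunit that RNA polymerases I and III share, had 291 with the short linker, and 285, 306 and 288 with the 33-aa linker. The largest difference of the list was at YPT1, for a Rab GTPase of secretory traffic, with 245 ppm in the short-linker library, and 162, 149 and 188 in the replicates (log2 difference 0.55 ± 0.20, SE; limma adjusted p = 0.066).

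Over all regions, the short-linker library differed from replicate 1 more than any other pair of the 4 libraries did, and replicates 2 and 3 were the closest pair. The SD of the log2 ratio was 0.50, 0.41 and 0.41 for the short linker over replicates 1, 2 and 3. It was 0.30 for replicate 2 over replicate 3, 0.43 for replicate 1 over replicate 2 and 0.36 for replicate 1 over replicate 3. At least 2-fold differences were found in 6.25%, 1.89% and 1.73% of regions between the short linker and replicates 1, 2 and 3. They were found in 4.08% between replicates 1 and 2, in 2.23% between replicates 1 and 3, and in 0.592% between replicates 2 and 3. Spearman's rho across regions was 0.967 and 0.968 for the short linker with replicates 2 and 3, and 0.987 for replicates 2 and 3 with each other, where regions share neighbouring windows and the same genome. With free MNase at 30 s the short-linker library had a rho of 0.174. The short-linker value lay within the range of the 3 replicates in 44.1% of tested regions, above it in 31.1% and below it in 24.8%. Replicate 1 lay within the range of the other 3 libraries in 39.5% of regions and was the lowest of the 4 in 46.5%. Replicate 2 was the highest of the 4 in 34.6%, more often than the short linker.

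**Figure D2:**
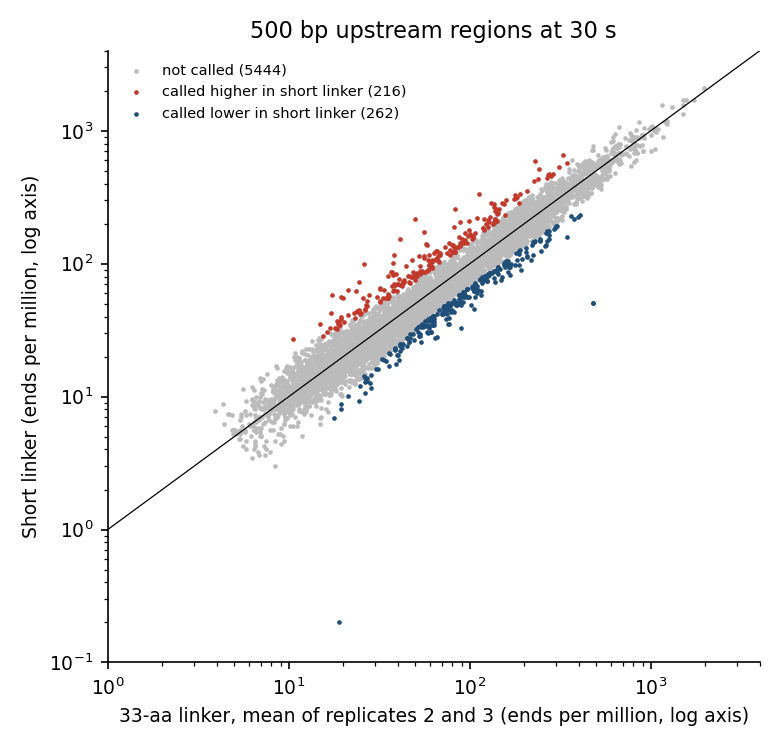
Ends in ppm in 500 bp upstream regions at 30 s, short linker (y axis, log scale) against the mean of 33-aa replicates 2 and 3 (x axis, log scale), 1 point per gene, with the line of equal values. The 216 regions called higher and the 262 called lower with the short linker lie mainly at middle levels. The highest regions lie along the line, but standard errors were larger there, so a difference had to be larger to be called. The 2 points far below the line are YCL021W-A and the window that YCL019W and YCL020W share.

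Against replicates 2 and 3 alone, 216 regions were higher and 262 lower with the short linker (limma with a mean-variance trend, Benjamini-Hochberg adjusted p under 0.05), which is 8.07% of the 5922 tested. These 216 and 262 calls come down to 180 and 225 separate regions where overlapping windows are counted once. Fragments shorter than 150 bp alone gave 60 higher and 210 lower. With 1 of the 2 replicates left out, and the Rap1 libraries of the same run code in the fit to estimate the spread, 121 were higher and 134 lower without replicate 2, and 185 and 168 without replicate 3. Of the calls, 214 higher (3.61%) and 233 lower (3.93%) also lay outside the range of all 3 replicates. Regions called higher already lay above replicates 2 and 3 on average. Replicate 1 was the lowest of the 4 libraries in 46.5% of tested regions, so for higher calls this check could seldom fail. When replicate 1 was added to the fit, 10 regions were called, or 0.169%, of which 7 were higher (0.118%) and 3 lower (0.0508%) (590 regions had an unadjusted p under 0.05, against 1163 without replicate 1). The p-values without replicate 1 rest on the spread between 1 pair of replicates. This pair lay closer to each other than to replicate 1, and the p-values do not cover the spread that replicate 1 brings. The fit pooled the spread over regions of like level, so a standard error is not a region's own spread. At VIR1, replicates 2 and 3 had 579 and 1449 ppm and the standard error was 0.38. At FAB1 they had 1080 and 1047, and it was 0.39. The named regions are therefore given with the values of all libraries. Regions with an Abf1 consensus had a median log2 difference of 0.04 and those without one of -0.04, and the consensus was present in 17.6% of regions called higher and 7.63% of those called lower, where 18.3% of tested regions have it.

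The 12 regions named as higher with the short linker are those with the largest differences among the calls. YGR067C, for a protein with zinc fingers like those of Adr1, had the largest difference among them. It had 216 ppm with the short linker, and 46.1, 53.4 and 45.9 in 33-aa replicates 1, 2 and 3 (log2 difference 2.10 ± 0.19, SE; limma adjusted p = 9.51e-25, and 0.000894 with replicate 1 added). The 3 replicates lay close together here, while a short-linker value outside their range was required by the choice of regions. MRK1, for a kinase related to glycogen synthase kinase 3, had 99.1 ppm with the short linker, and 15.7, 27.2 and 24.9 with the 33-aa linker (log2 difference 1.89 ± 0.22; limma adjusted p = 9.52e-15). GIT1, for a permease of glycerophosphoinositol, had 257 with the short linker, and 50.1, 88.2 and 78.0 with the 33-aa linker (log2 difference 1.62 ± 0.19). LEE1, for a zinc finger protein, had 334 with the short linker, and 73.8, 112 and 112 with the 33-aa linker. All of these kept an adjusted p under 0.05 with replicate 1 added, as did APJ1, GAP1 and ALD4.

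RGI1, named for its induction in respiratory growth, showed how far the replicates themselves could differ. It had 154 ppm with the short linker, against 9.82, 50.1 and 31.7 in 33-aa replicates 1, 2 and 3 (log2 difference 1.93 ± 0.20; limma adjusted p = 3.08e-19, and 0.116 with replicate 1 added). The short-linker value was the highest, and replicate 1 lay far below the other 2 replicates. TMA10, for a protein found with ribosomes, had 172 with the short linker, and 20.6, 60.1 and 51.4 with the 33-aa linker. PHO89, for a phosphate transporter, had 73.1 with the short linker, and 17.6, 25.7 and 22.9 with the 33-aa linker. The remaining regions named by rule lay upstream of YMR082C, YOR376W, HSP104, APJ1 and HSC82, with log2 differences of 1.44 to 1.71.

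**Figure D3:**
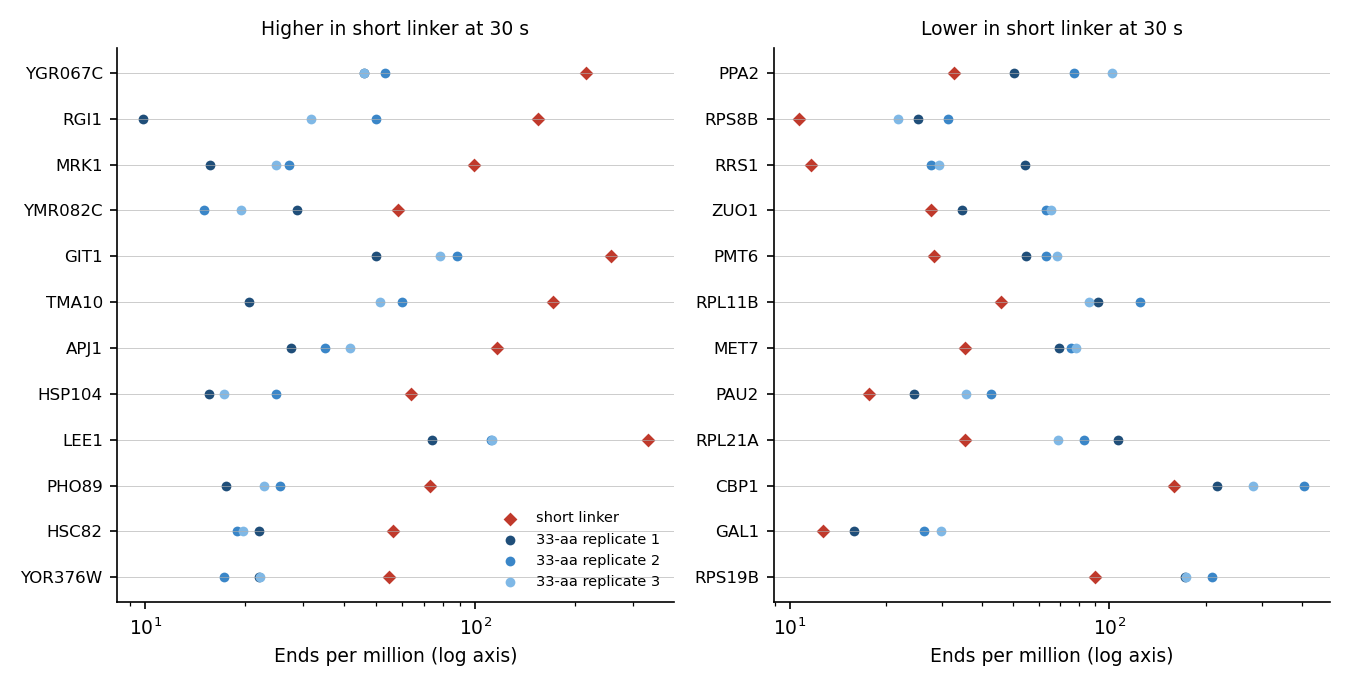
Ends in ppm (x axis, log scale) at 30 s for the 12 regions with the largest and the 12 with the smallest log2 difference, with the short-linker library as a diamond and the 3 33-aa replicates as circles. The short-linker value lies outside all 3 replicates in each row, as the choice of regions requires, and the replicates of RGI1 and TMA10 are spread widely.

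Heat shock chaperones and cochaperones were frequent among the regions called higher, in a list drawn up after values were seen and so no independent evidence. Of its 29 regions, 12 were called higher and 0 lower, beside 3.65% and 4.42% of all tested regions. With replicate 1 in the fit, APJ1 was the 1 region of the list still called. The median level of the list was 114 ppm with the short linker, and 52.9, 64.4 and 70.6 in 33-aa replicates 1, 2 and 3. HSP82, for the heat-inducible Hsp90, had 286 with the short linker, and 149, 137 and 127 with the 33-aa linker (log2 difference 1.12 ± 0.20; limma adjusted p = 3.07e-06). HSC82, its constitutive partner, had 56.2 with the short linker, and 22.1, 19.0 and 19.7 with the 33-aa linker. HSP104, for the disaggregase, had 63.8 with the short linker, and 15.6, 24.9 and 17.3 with the 33-aa linker. Short-linker values were above all 3 replicates at each of these genes, which the rule for named regions required of HSC82 and HSP104. SSA1, for a cytosolic Hsp70, had 515 with the short linker, and 241, 191 and 292 with the 33-aa linker. APJ1, for a J-domain protein, had 116 with the short linker, and 27.7 to 41.7 with the 33-aa linker. Not all of the list moved, since STI1, for a cochaperone of Hsp90, had 437 with the short linker, and 529, 611 and 535 with the 33-aa linker, and SSA4 had 20.9 against 18.5, 18.8 and 19.1.

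Genes of respiratory and reserve carbon metabolism, again listed after values were seen and with YGR067C and RGI1 among them, gave 12 calls higher and 2 lower among 30 regions (40.0% and 6.67%, beside 3.65% and 4.42% of all tested regions). With replicate 1 in the fit, YGR067C and ALD4 were still called. Their median level was 129 ppm with the short linker, against 67.6, 76.2 and 78.1 in the replicates. JEN1, for the lactate permease, had 142 with the short linker, and 65.3, 64.4 and 50.1 with the 33-aa linker (log2 difference 1.30 ± 0.19; limma adjusted p = 4.83e-09). ALD4, for mitochondrial aldehyde dehydrogenase, had 207 with the short linker, and 78.8, 83.6 and 92.5 with the 33-aa linker. GLC3, for the glycogen branching enzyme, had 138 with the short linker, and 13.5, 52.3 and 64.01 with the 33-aa linker, so replicate 1 was again low. The 2 regions called lower belong to gluconeogenesis. PCK1 had 41.7 ppm with the short linker, and 69.9, 68.9 and 71.8 with the 33-aa linker, and FBP1 had 58.2, against 82.3, 89.6 and 85.7. Outside these lists, GAP1, for the general amino acid permease, had 597 with the short linker, and 255, 215 and 246 with the 33-aa linker.

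Cytosolic ribosomal protein genes were cut less in the short-linker library. Of 137 regions, 56 were called lower and 0 higher (40.9% lower, beside 4.42% of all tested regions), and 110 lay below all 3 replicates, beside 24.8% of all tested regions. The median log2 difference of the list was -0.53, beside -0.03 for all tested regions. With replicate 1 in the fit, the median was -0.49 and 0 of the 137 were called. In ppm, its median was 67.0 with the short linker, and 95.9, 90.1 and 94.7 in 33-aa replicates 1, 2 and 3. Over all tested regions the medians were 45.9 with the short linker, and 39.2, 48.6 and 46.9 in these replicates. RPS19B had 90.2 with the short linker, and 172, 209 and 173 with the 33-aa linker (log2 difference -1.07 ± 0.19; limma adjusted p = 5.71e-06, and 0.0975 with replicate 1 added). RPL21A had 35.2 with the short linker, and 107, 83.4 and 69.0 with the 33-aa linker. RPS18A had 107 with the short linker, and 230, 220 and 214 with the 33-aa linker. RPL11B had 45.9 with the short linker, and 91.7, 125 and 86.5 with the 33-aa linker. The 13 regions of the list that hold an Abf1 consensus had a median log2 difference of -0.13, and the 124 without one of -0.53. RPL3 and RPS28A, which are classical Abf1 targets, had 462 and 171 with the short linker, against 353 to 586 and 154 to 182 with the 33-aa linker.

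Some genes that serve ribosomes or other pathways were lower as well. RRS1, needed for assembly of the large ribosomal subunit, had 11.7 ppm with the short linker, and 54.4, 27.6 and 29.3 with the 33-aa linker (log2 difference -1.21 ± 0.28; limma adjusted p = 0.00112). ZUO1, for a ribosome-associated J protein, had 27.6 with the short linker, and 34.7, 63.5 and 65.8 with the 33-aa linker. PPA2, for mitochondrial pyrophosphatase, had 32.6 with the short linker, and 50.3, 77.5 and 101.5 with the 33-aa linker (log2 difference -1.42 ± 0.20; limma adjusted p = 3.66e-10, and 0.217 with replicate 1 added). For ZUO1 and PPA2 replicate 1 lay nearest to the short linker. The remaining regions named by rule were those of RPS8B, PMT6, MET7, PAU2, CBP1 and GAL1, with log2 differences of -1.21 to -1.08. REB1 was the 1 of 8 genes of general regulatory factors that was called, where 8.07% of all tested regions were, with 149 ppm in the short-linker library, and 242, 257 and 233 in the replicates.

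Counts in the other lists are to be read beside the 3.65% of all tested regions called higher and the 4.42% called lower. Mitochondrial ribosomal proteins had a median log2 difference of 0.01 over 74 regions, with RSM10 called higher and MRPL35, YML6 and MRPL19 lower. The window of YML6 held almost the same values as that of RPS17A, a cytosolic ribosomal protein gene (40.5 and 40.7 ppm with the short linker). The lists thus share this place. Proteasome genes had 2 called higher (PUP1, for a subunit, and RPN4, for the activator of the subunit genes) and 2 lower (RPT1 and PRE6, both for subunits) among 34, with a median of 0.14. RNA polymerase I and III subunits had 0 and 0 called among 24, with a median of 0.03. Of 17 glycolysis genes, HXK1, for a hexokinase, was called higher, with 121 ppm in the short-linker library, and 22.9, 74.8 and 75.2 in the replicates. Ty genes, whose near-identical copies share reads, had a median log2 difference of -0.38 over 92 regions. These regions are not all separate, since genes of 1 element can share a window, as YCL019W and YCL020W do. Those 2 genes, beside the empty stretch of chromosome III, are in this list.

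**Figure D4:**
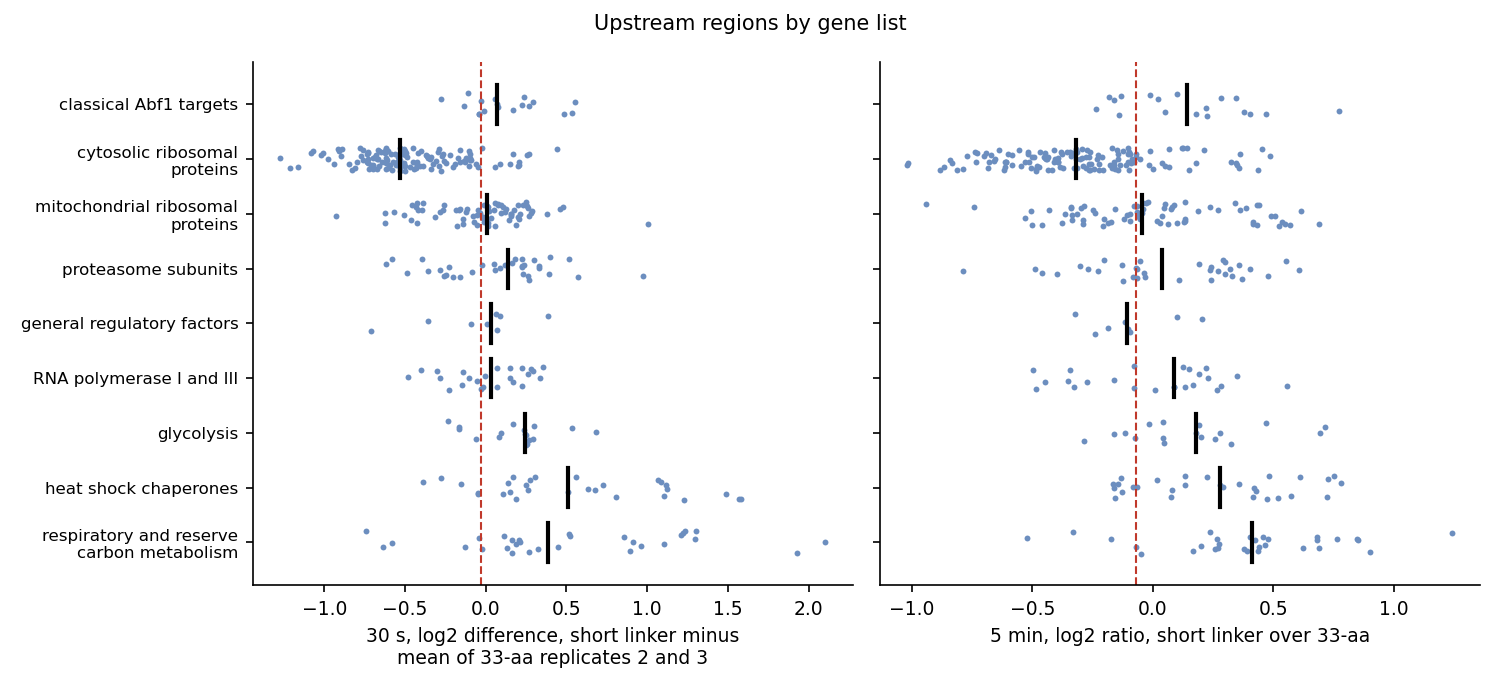
Log2 difference at 30 s (left) and log2 ratio at 5 min (right) of the short linker against the 33-aa linker on the x axes, 1 point per gene and 1 row per list, with a black bar at the list's median and a dashed line at the median of all regions. Cytosolic ribosomal proteins lie to the left at both times (medians -0.53 and -0.32), and the 2 lists drawn up after values were seen lie to the right.

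Sequence letters also differed between the called groups. The letters AGGGG, the core of the stress response element bound by Msn2 and Msn4, were searched on both strands of the 500 bp windows after the values were seen. They occurred in 63.0% of regions called higher and 26.0% of regions called lower, where 34.1% of all tested regions hold them. A heat shock element, written as TTC, GAA and TTC with NN between them, occurred in 4.63% of regions called higher and 1.53% of those called lower, where 1.49% of all hold them. The core TTACCCG of the Reb1 site was in 4.63% of regions called higher and 17.2% of those called lower, where 10.2% of all hold it. The PAC letters GATGAG of ribosome biogenesis genes were in 19.9% and 35.5%, where 28.1% of all hold them. Base composition moved too, with a median A+T content of 61.2% in regions called higher and 64.8% in those called lower, and 63.4% in all tested regions. Its part in these shares was not tested. The sequences that follow are the best-cut stretches of 4 regions called higher and 1 called lower, HSC82 among them as a region called higher that lacks the letters, read along the strand of the gene, to show how the letters lie within the cut DNA, with AGGGG or its reverse complement CCCCT in capitals. They are chrVII:625150-625250 upstream of YGR067C, chrXIV:480974-481074 upstream of APJ1, chrXII:88345-88445 upstream of HSP104, chrXIII:632025-632125 upstream of HSC82 and chrXIV:63025-63125 upstream of RPS19B. YGR067C lies on the minus strand, as does RPS19B, and the other genes on the plus strand.
YGR067C: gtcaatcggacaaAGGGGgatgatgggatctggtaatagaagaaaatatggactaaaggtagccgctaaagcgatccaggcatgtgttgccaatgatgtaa
APJ1: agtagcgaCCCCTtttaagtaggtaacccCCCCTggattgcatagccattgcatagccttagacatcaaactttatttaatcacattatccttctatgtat
HSP104: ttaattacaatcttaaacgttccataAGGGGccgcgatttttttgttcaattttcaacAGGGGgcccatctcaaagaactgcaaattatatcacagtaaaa
HSC82: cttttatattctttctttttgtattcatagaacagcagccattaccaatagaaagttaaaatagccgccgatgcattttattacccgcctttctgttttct
RPS19B: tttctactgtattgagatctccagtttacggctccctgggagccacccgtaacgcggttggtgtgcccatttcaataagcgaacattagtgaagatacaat

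The stretch shown for YGR067C held 102 ppm with the short linker, against 15.5, 30.9 and 27.1 in 33-aa replicates 1, 2 and 3. That of RPS19B held 37.9 with the short linker, against 68.4, 93.6 and 74.8. The whole 500 bp window held AGGGG 3 times for YGR067C, 2 times for APJ1, 3 times for HSP104, and 0 times for HSC82 and RPS19B. Over the named regions, 9 of the 12 higher windows and 7 of their best-cut stretches held the letters, against 2 of the 12 lower windows (RPL11B and PAU2) and 0 of their stretches. Of all tested windows 34.1% hold them, and the share over all best-cut stretches was not counted. The named regions were chosen by these same values. The windows of PHO89, HSC82 and YOR376W, all called higher, lack them. These are matches of letters only.

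Beside the empty stretch of chromosome III, the regions of YCL021W-A, YCL019W and YCL020W were the 3 called lower when replicate 1 was in the fit. YCL020W and YCL019W, which encode Gag and Gag-Pol of a Ty2 element and share 1 window, had 50.7 ppm with the short linker, and 344, 505 and 451 with the 33-aa linker (log2 difference -3.21 ± 0.21; limma adjusted p = 1.92e-48). YCL021W-A had 0.201 ppm with the short linker at 30 s, which is 1 end, and 8.67, 20.1 and 17.5 with the 33-aa linker.

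At 5 min there was 1 library of each linker. Of 5970 regions, 9 were at least 2-fold higher and 30 at least 2-fold lower with the short linker, or 0.151% and 0.503% (0.653% in all), with no replicate check. The count depended on the fragments used, since those shorter than 150 bp alone gave 184 higher and 518 lower, and a pseudocount of 5 gave 5 and 13. The SD of the log2 ratio was 0.34. HIS4, of histidine synthesis, had 190 ppm with the short linker and 70.8 with the 33-aa linker (log2 ratio 1.41, with a counting error of 0.08). MRK1 had 172 with the short linker and 65.1 with the 33-aa linker, YGR067C had 143 and 59.9, and GIT1 had 171 and 78.2. These were also called higher at 30 s, as were AIM26 and YMR082C, whereas SAC7 and YAT2 were not. Outside the place on chromosome III, where YCL019W and YCL020W had 36.2 ppm with the short linker and 181 with the 33-aa linker, SRT1, for a cis-prenyltransferase, had the smallest ratio among the regions named by rule, with 15.9 ppm for the short linker and 73.4 for the 33-aa linker (log2 ratio -2.14, with a counting error of 0.15). RRP6, for a nuclease of the nuclear exosome, had 44.8 with the short linker and 143 with the 33-aa linker. ZUO1 had 58.9 with the short linker and 158 with the 33-aa linker, and was called lower at 30 s as well. The others named by rule were BMT6, UBA3, RIM2, SLP1 and YSH1, with log2 ratios of -1.39 to -1.23.

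Regions with the Abf1 consensus had somewhat higher levels at 5 min with the short linker than with the 33-aa linker. Their median log2 ratio was 0.14, against -0.12 for regions without the consensus. Around intergenic matches the short-linker library had 88.8 ppm per site, and the 33-aa libraries had 116 at 2.5 min, 79.0 at 5 min and 57.5 at 10 min. Free MNase had 37.5 at 5 min. The short-linker value thus fell between the 33-aa libraries at 2.5 min and 5 min. Across regions, Spearman's rho of the short-linker 5 min library was 0.964 with the 33-aa library at 2.5 min, 0.945 with that at 5 min and 0.905 with that at 10 min. The strongest positions, -15 and 10, were those of the 33-aa library at 5 min. Inside the consensus the share at 5 min was 1.98% with the short linker and 2.40% with the 33-aa linker. This is the reverse of the order at 30 s. At the HUA1 region the level was 333 ppm with the short linker and 253 with the 33-aa linker, and at TFA1 it was 310 and 263.

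The differences at 30 s and at 5 min went the same way in most regions. No 33-aa library is shared by the comparisons, but both short-linker libraries come from 1 strain and carry 1 run code. Across 5922 regions Spearman's rho between the log2 difference at 30 s and the log2 ratio at 5 min was 0.571, and 70.2% of regions had the same sign. Of the regions called higher at 30 s, 210 of 216 had a positive ratio at 5 min, where 41.7% of all regions did. Of those called lower, 250 of 262 had a negative ratio, where 58.3% of all did. Cytosolic ribosomal proteins had a median log2 ratio of -0.32 at 5 min, with 19 of 137 above 0. Heat shock genes had a median of 0.28 with 21 of 29 above 0, and respiratory and reserve carbon genes one of 0.41 with 25 of 30 above 0. The median over all regions was -0.07.

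**Figure D5:**
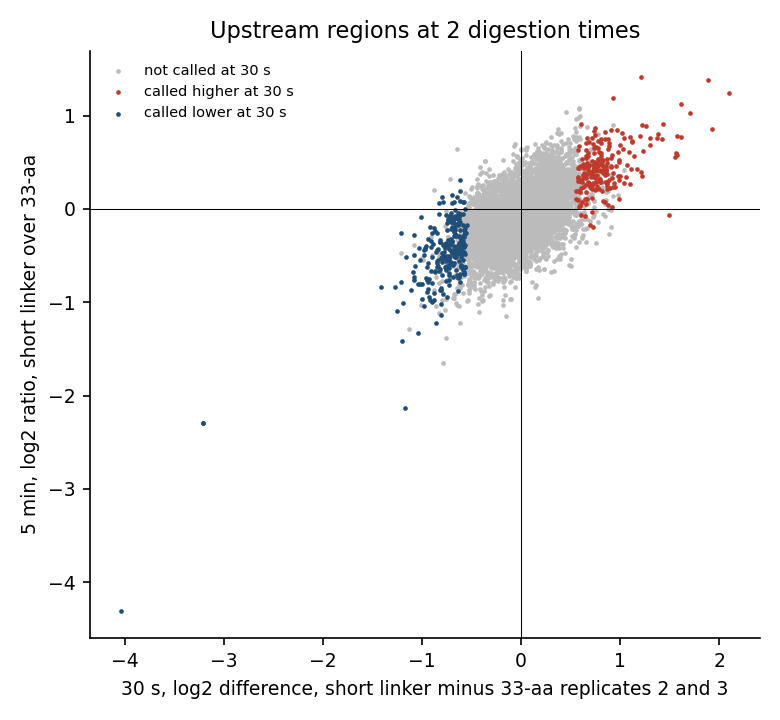
Log2 ratio at 5 min (y axis) against log2 difference at 30 s (x axis), short linker against 33-aa linker, 1 point per upstream region. Regions called higher at 30 s lie above 0 at 5 min in 210 of 216 cases, and regions called lower lie below 0 in 250 of 262.

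At single genes the sizes differed between times. RGI1 had 204 ppm with the short linker and 113 with the 33-aa linker at 5 min, a log2 ratio of 0.85 beside the 1.93 at 30 s. HSP104 had 138 with the short linker and 92.1 with the 33-aa linker at 5 min, and HSP82 had 220 and 133. RPS19B had 142 with the short linker and 218 with the 33-aa linker, and RPL21A had 81.9 and 137. RPS18A, called lower at 30 s, had 160 with the short linker and 170 with the 33-aa linker at 5 min. Free MNase at 30 s had 38.0 ppm upstream of YGR067C, 38.0 of HSP104 and 38.8 of RPS19B. Its median was 42.5 in regions called higher and 39.5 in those called lower. Both linkers lay above it at YGR067C and RPS19B. At HSP104, MRK1 (free MNase 52.6) and PHO89 (46.8) the 33-aa replicates lay below it and the short linker above. At RPS8B both linkers lay below its 43.2. At 5 min it had 207 upstream of HSP104, above both linkers.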

How the data were processed

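ChEC-seq fragments of the Abf1-MNase strains with the short and the 33-aa linker were used. The authors selected small DNA with beads, sequenced both fragment ends and mapped the pairs with Novoalign 2.08.03 to sacCer3 (submitters' processing notes). They deposited fragment coordinates, unnormalized and with identical fragments kept. Here both ends of each fragment were counted (Python 3.11.15, pandas 2.3.3), ends in rDNA (chromosome XII, 451000 to 490000) and mitochondrial DNA were left out, and values are ends per 1000000 of the rest (ppm), in 500 bp upstream of each protein-coding gene of the RefSeq annotation. Regions that touch rDNA (19) were not used.

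At 30 s, log2(ppm + 1) of 1 short-linker library and 33-aa replicates 2 and 3 was fitted with limma 3.58.1 in R 4.3.3 (mean-variance trend, two-sided, Benjamini-Hochberg, regions with a mean of at least 5 ppm). The lone library is assumed to vary like the replicates, whose spread comes from 1 pair and is pooled over regions of like level. Nothing says that the libraries come from separate cultures, so p-values measure the spread between libraries, which may be technical. At 5 min log2 ratios carry no test. Single values were compared by exact permutation. Reads carry no molecular identifiers, so counting errors and limits of a count of 0 (3 ends) cover counting error only. Consensus matches (13 bp, both strands) were oriented left to right. The limma step was tested on simulated data. Alternatives changed the scaling, pseudocount, filter, model, fragment set, window, regions and 33-aa libraries, 1 at a time, except that Rap1 libraries entered the fit where replicate 2 or 3 was left out.

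Named regions are the 12 largest and 12 smallest log2 differences among calls outside the range of all 3 replicates, the 10 highest regions, and the 8 largest and 8 smallest ratios at 5 min, each with a mean of at least 20 ppm, outside Ty genes and 10 kb of chromosome ends, and list members. Members and lists were chosen with earlier results of these data known. Regions called with replicate 1 added, the stretch on chromosome III, the heat shock and respiratory lists and the motif letters were chosen after values were seen.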

Additional observations from a re-analysis of the deposited data

Results flagged for a closer look

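HSC82, for the constitutive Hsp90, drew attention because its difference at 30 s was not seen at 5 min. At 30 s its upstream region had 56.2 ppm with the short linker, and 22.1, 19.0 and 19.7 in 33-aa replicates 1, 2 and 3. At 5 min it had 91.4 with the short linker and 95.8 with the 33-aa linker. The log2 ratio was -0.0667 with a counting error of 0.081, beside a median of -0.07 over all regions. Free MNase had 38.6 ppm there at 30 s, above the 33-aa replicates and below the short linker. At 5 min it had 177, above both linkers. The difference between the times was not tested, and the value at 5 min has no replicate check.

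Ribosomal DNA lies outside the regions compared. Its share of ends was 14.8% in the short-linker library at 30 s, against 7.12%, 11.1% and 8.17% in 33-aa replicates 1, 2 and 3, and it drew attention because free MNase at 30 s had 6.70%. Other libraries were higher, with 18.2% and 17.0% in Rap1 30 s replicates 2 and 3, which carry the same run code, and 27.0% in free MNase at 5 min. Values in ppm leave rDNA ends out, and the part of this share in the differences between regions was not tested.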

How the results depend on the processing

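No paired analysis was possible because the short-linker libraries carry no replicate numbers that match separate 33-aa replicates. At 30 s, against 478 regions (216 higher, 262 lower), scaling to ends inside tested regions called 295 (143 higher, 152 lower), fragments shorter than 150 bp 270 (60 higher), replicate 1 added 10 (7 higher, 3 lower), and the Rap1 libraries added 263 (137 higher, 126 lower). Distinct fragments counted once called 415 lower. With the Rap1 libraries kept in the fit, leaving out replicate 2 or 3 called 255 to 353, 121 to 185 higher and 134 to 168 lower. At 5 min, against 39 (9 higher, 30 lower), a pseudocount of 5 gave 18 (5 higher, 13 lower) and fragments shorter than 150 bp 702 (184 higher, 518 lower). Median-of-ratios scaling gave 19 lower, the mean of the 2.5 and 10 min libraries 17 lower, and 250 bp windows 18 higher. The cause of these shifts was not tested.

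Around the consensus, the short linker over the 33-aa mean stayed between 0.928 and 1.00 for ends per site, 1.17 and 1.26 for the share inside, 0.985 and 1.05 for the flanks, and 0.911 and 1.00 for left over right as each replicate was left out. Matches inside genes gave 1.102 for the share inside, beside 1.21. With replicate 1 added, median log2 differences were -0.49 for cytosolic and 0.038 for mitochondrial ribosomal proteins, 0.0050 for general regulatory factors, 0.055 for RNA polymerase subunits and 0.57 for carbon metabolism. With distinct fragments they were -0.025 for mitochondrial ribosomal proteins and 0.36 for carbon metabolism.

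Of 29 called genes named, 0 changed sign under the alternatives run. Most were chosen for a large difference and a short-linker value outside the range of all replicates. For those, adding replicate 1 or leaving out another replicate could not turn the sign, so these alternatives did not test it. Of the 29 genes, 19 lost the call with replicate 1 added and 10 with short fragments. The 10 highest regions were chosen by level and not by difference. Of their 13 genes, 11 changed sign under at least 1 alternative. Their log2 differences ran from -0.48 to 0.91, so their direction is not settled. With 1 short-linker library at each time, a library effect and the linker cannot be told apart.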
